A study of Mus musculus with 11 samples.

Results

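The E proteins are a family of basic helix-loop-helix transcription factors encoded by Tcf3, Tcf12 and Tcf4, and the Id proteins, encoded by Id1, Id2 and Id3, are their inhibitors. The RNA levels of these 6 genes were read from a table of 23071 gene identifiers in mouse B cell samples, matched by gene symbol, and all 6 were present. The samples came from C57BL/6 mice and fell into 3 groups. Wild-type progenitor B cells were purified from bone marrow on columns in 3 pools of 3, 7 and 6 mice. Ebf1+/- progenitor B cells, heterozygous for the B lineage factor gene Ebf1, came from bone marrow of 3 pools of 3, 6 and 7 mice. Leukemic B cells came from lymph nodes of 5 mice of the genotype Pax5+/- x Ebf1+/-, 1 mouse per sample, as suspensions flash frozen before RNA was isolated. The leukemias thus differed from both marrow groups in genotype, organ and preparation, and these differences cannot be told apart. Ages were not given in the sources used here, and no healthy lymph node sample and no non-leukemic Pax5+/- x Ebf1+/- sample was analysed here.

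An E protein binds DNA as a dimer, through a basic region that contacts the E-box, a hexamer of the form CANNTG. Id proteins keep the dimerisation domain but lack the basic region, so an Id protein paired with an E protein holds it off DNA. The products of Tcf3 are required for B lineage commitment and act upstream of and together with Ebf1 and Pax5, and Tcf12 contributes to the same programme. Tcf4 is best known as the factor that specifies plasmacytoid dendritic cells. Id2 is known for its role in innate lymphoid and natural killer cells, and Id3 for the brake it sets on E proteins in developing lymphocytes.

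Tcf3 lies on chromosome 10 at 80409514 to 80433647 on the minus strand of GRCm38 and has 14 transcripts annotated in GENCODE M21. Tcf12 lies on chromosome 9 at 71842688 to 72111871, on the minus strand, with 21 annotated transcripts. Id1 is at 152736251 to 152737410 on chromosome 2 (plus strand), Id2 at 25093799 to 25097140 on chromosome 12 (minus strand) and Id3 at 136143497 to 136145755 on chromosome 4 (plus strand). No other annotated gene has exons that overlap the exons of any of the 6 genes. The values are 1 per gene, so the alternatively spliced proteins of Tcf3, and the long and short forms of Tcf12 and Tcf4, were not separated.

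RefSeq promoter entries on GRCm38.p6 matched 4 of the 6 genes, Tcf3, Tcf12, Id2 and Id3. The 250 bases before the transcription start are printed here, 5′ to 3′ on the gene's own strand. They are shown because the E-box is the sequence that E proteins bind, and capitals mark every CANNTG. For Tcf12 the most upstream of 3 listed starts is shown.
Tcf3 (chr10:80433636-80433885, minus strand): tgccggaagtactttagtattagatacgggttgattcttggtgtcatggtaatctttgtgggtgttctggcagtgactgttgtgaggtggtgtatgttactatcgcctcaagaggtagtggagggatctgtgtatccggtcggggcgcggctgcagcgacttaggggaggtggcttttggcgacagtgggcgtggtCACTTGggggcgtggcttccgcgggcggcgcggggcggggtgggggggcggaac
Tcf12 (chr9:72111820-72112069, minus strand): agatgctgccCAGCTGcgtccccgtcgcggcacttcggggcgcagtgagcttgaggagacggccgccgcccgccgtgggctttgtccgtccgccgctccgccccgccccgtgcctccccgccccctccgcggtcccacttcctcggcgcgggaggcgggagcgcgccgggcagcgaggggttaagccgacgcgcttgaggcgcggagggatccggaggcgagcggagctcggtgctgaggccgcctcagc
Id2 (chr12:25096093-25096342, minus strand): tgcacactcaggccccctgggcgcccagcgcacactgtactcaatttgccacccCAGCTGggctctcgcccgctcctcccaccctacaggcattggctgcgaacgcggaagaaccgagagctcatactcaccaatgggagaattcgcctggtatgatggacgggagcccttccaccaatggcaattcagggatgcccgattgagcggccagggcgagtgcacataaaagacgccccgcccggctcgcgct
Id3 (chr4:136143572-136143821, plus strand): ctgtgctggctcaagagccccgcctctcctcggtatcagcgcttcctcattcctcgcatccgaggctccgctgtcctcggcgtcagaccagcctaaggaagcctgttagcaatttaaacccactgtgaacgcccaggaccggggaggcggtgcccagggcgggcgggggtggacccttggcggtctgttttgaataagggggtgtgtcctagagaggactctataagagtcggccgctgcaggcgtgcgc

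The Tcf3 window held 1 E-box, CACTTG, that begins 54 bases before the start. The Tcf12 window held 1, CAGCTG, at 240 bases before the start, and the Id2 window held 1 of the same letters at 196 bases. No CANNTG was found in the Id3 window. Of the other two Tcf12 starts, the nearer one had 1 E-box at 149 bases before it, with the letters CAAGTG, and the internal one had none. Over all 32851 promoter entries of this length, 66.2% held at least 1 CANNTG (a form that reads the same on both strands), and CAGCTG was in 13% of them. The variant CAGGTG, searched with its reverse complement, was in 17.2% of all windows and in none of the 4 shown. GGCGCC, letters known as a binding sequence of BMP-regulated SMAD proteins, was in 9.59% of all windows and in the Id2 window among the 4. GCGGGGGCG, a binding sequence of Egr factors, was in 2.57% of all windows and in none of the 4. The 3 E-box forms overlap by construction, since CAGCTG and CAGGTG are both CANNTG.

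Levels are FPKM, fragments scaled to transcript length and library total, so that genes of different length can be set on 1 scale. Library totals were 8506680 to 15313920 reads, and 1 read of a gene of 2000 bases was worth 0.0327 to 0.0588 FPKM. The summed level of 10 B lineage markers was 2861 to 5248 FPKM in wild type, 1903 to 6461 in the Ebf1+/- pools and 3938 to 5083 in leukemia, so all 3 groups carried the labelled lineage. Ebf1 itself was at 83.4 to 112 FPKM in wild type, 43.4 to 86.5 in the Ebf1+/- pools and 54.3 to 81.4 in leukemia. Pax5 was at 175 to 312, 89.0 to 254 and 71.4 to 162 FPKM. Over the 11 libraries the closest pair was wild-type replicate 2 with Ebf1+/- replicate 2 (r = 0.989 across genes of log2 FPKM + 1), closer than any pair within a group (at most 0.984). Granulocyte markers were high in both marrow groups and near 0 in leukemia: 12 of them summed to 593 to 3391 FPKM in wild type, 2679 to 10579 in the Ebf1+/- pools and 2.19 to 9.17 in leukemia. In bulk samples such as these, fewer cells of a type and less RNA per cell cannot be told apart.

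Among the E protein genes, Tcf3 was the most abundant in every library, and its level was lowest in leukemia. Wild-type Tcf3 was at 405, 326 and 283 FPKM, Ebf1+/- Tcf3 at 229, 257 and 159, and leukemia Tcf3 at 67.6, 68.4, 98.0, 69.6 and 111. The 3 groups did not overlap at any point: each leukemia was below each Ebf1+/- pool, and each Ebf1+/- pool was below each wild-type pool. The mean was 338 ± 61.8 FPKM in wild type (SD, n = 3), 215 ± 50.2 in the Ebf1+/- pools (SD, n = 3) and 82.8 ± 20.1 in leukemia (SD, n = 5).

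Tcf12, the second E protein gene by level, was at 83.5, 72.3 and 74.9 FPKM in wild type. In the Ebf1+/- pools it was at 42.4, 60.1 and 41.6 FPKM, and in leukemia at 27.1, 27.4, 33.1, 47.8 and 37.7. Wild type stood above both other groups without overlap, while leukemia replicate 4 lay above 2 of the 3 Ebf1+/- pools. The means were 76.9 ± 5.85, 48.1 ± 10.4 and 34.6 ± 8.60 FPKM (SD, n = 3, 3 and 5).

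Tcf4, on chromosome 18, was the lowest of the E protein genes in every library and hardly varied. It was at 29.4, 24.6 and 30.7 FPKM in wild type, at 32.5, 28.3 and 23.7 in the Ebf1+/- pools and at 25.3, 19.8, 27.0, 24.0 and 28.0 in leukemia. All 3 groups overlapped. The group means were 28.2 ± 3.20, 28.2 ± 4.40 and 24.8 ± 3.21 FPKM (SD, n = 3, 3 and 5), and the coefficient of variation among leukemias was 12.9%, against 24.3% for Tcf3 and 24.8% for Tcf12.

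Id3 was the most abundant Id gene in every library and was widely spread within each group. It was at 56.8, 53.8 and 25.0 FPKM in wild type, at 111, 83.5 and 24.3 in the Ebf1+/- pools and at 9.13, 24.4, 30.2, 9.65 and 70.7 in leukemia. Leukemia replicate 5 was above every wild-type pool and replicates 1 and 4 below all other libraries, so the groups overlapped. The means were 45.2 ± 17.5, 72.9 ± 44.2 and 28.8 ± 25.1 FPKM (SD, n = 3, 3 and 5), with a coefficient of variation of 87.3% among leukemias.

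Id2 was at 8.72, 6.89 and 5.97 FPKM in wild type, at 21.7, 5.89 and 10.8 in the Ebf1+/- pools and at 2.59, 3.96, 3.80, 8.51 and 1.65 in leukemia. Of the leukemias, replicate 4 alone reached the wild-type range, and Ebf1+/- replicate 1 was the highest library. The means were 7.19 ± 1.40, 12.8 ± 8.10 and 4.10 ± 2.64 FPKM (SD, n = 3, 3 and 5). Leukemia replicate 4 thus had the highest Id2 and the second lowest Id3 of the 5 leukemias, and replicate 5 the lowest Id2 and the highest Id3.

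Id1 was the lowest of the 6 genes. It was at 2.22, 0.903 and 1.40 FPKM in wild type (23, 10 and 19 reads) and at 6.99, 1.91 and 3.66 FPKM in the Ebf1+/- pools (100, 20 and 43 reads). In leukemia it was at 0, 0.0817, 0.345, 0.331 and 0.374 FPKM, from 0, 1, 4, 4 and 5 reads. The 0 in leukemia replicate 1 allows a level of up to 0.378 FPKM (3 reads, counting error only). Every leukemia was below every marrow library. The means were 1.51 ± 0.665, 4.19 ± 2.58 and 0.226 ± 0.172 FPKM (SD, n = 3, 3 and 5). Id4, the remaining Id gene, had 1 read in Ebf1+/- replicate 2 and 0 elsewhere, where 0 reads allow up to 0.118 to 0.213 FPKM.

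**Figure D1:**
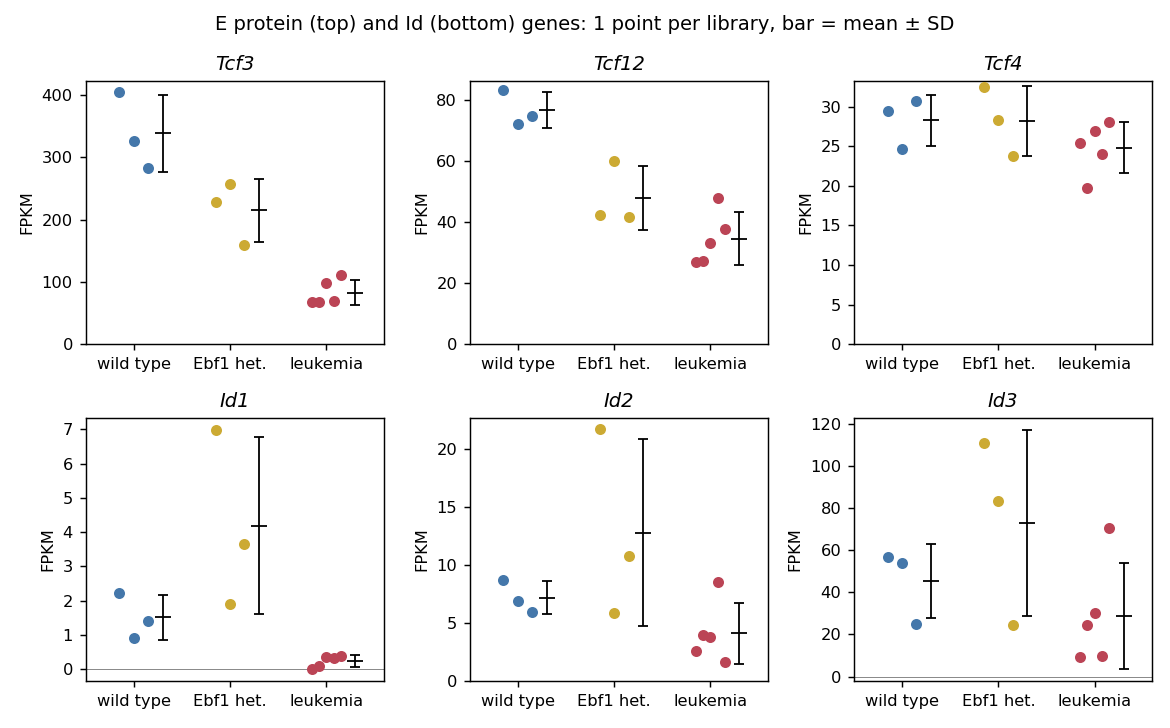
FPKM (linear axes, each with its own range) of the 6 genes, 1 point per library in replicate order, for wild type (n = 3), Ebf1+/- (n = 3) and leukemia (n = 5), with the mean ± SD as a black bar. Tcf3 falls in 3 separate bands from 283 to 405 FPKM in wild type to 67.6 to 111 in leukemia, Tcf4 is level, and the Id genes have their largest SD in the Ebf1+/- pools.

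The comparison of leukemia with wild type asked how the leukemias differ from normal progenitor B cells. Tcf3 and Tcf12 fell and Tcf4 did not pass the test. Tcf3 in leukemia was at 24.5% of its wild-type mean, a log2 fold change of -2.03 on the log2(FPKM + 1) scale (SE 0.20, limma adjusted p = 0.000101), and was lower in 5 of 5 leukemias. Tcf12 was at 45.0% of wild type, with a log2 fold change of -1.16 (SE 0.18, limma adjusted p = 0.00108), again lower in 5 of 5. The exact two-sided permutation test gave p = 0.0179 for each of them, the smallest value that 5 against 3 libraries can give. Tcf4 differed by -0.18 (95% interval -0.47 to 0.11, limma adjusted p = 0.274).

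None of the Id genes was called in that comparison. Id2 differed by -0.81 (95% interval -1.61 to -0.0019, limma adjusted p = 0.0946), and without leukemia replicate 4 the difference was -1.07 with an adjusted p of 0.00969. Id3 differed by -0.93 (95% interval -2.32 to 0.45, limma adjusted p = 0.244), and without leukemia replicate 5 by -1.35 with an adjusted p of 0.0444. Id1 had a mean under 1 FPKM over these libraries and so was not tested with the others. Its leukemia mean was 15% of wild type with no overlap of the groups (exact two-sided permutation p = 0.0179, from the reads given above), and with no filter limma gave a difference of -1.01 and an adjusted p of 0.0042.

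These counts are read against a wide background. Of 10968 genes tested, limma called 24.1% lower and 20.7% higher in leukemia, and the leukemias lay wholly below wild type for 25.1%. So 2 of the 5 genes tested were called lower and none higher. In size, 3.25% of tested genes had a lower log2 fold change than Tcf3, 7.74% a lower one than Tcf12 and 39.1% a lower one than Tcf4. The median log2 fold change of all tested genes was -0.04.

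The Ebf1+/- pools address what 1 lost copy of Ebf1 does in progenitor B cells without leukemia. No gene of 11167 passed the limma test in this comparison (0.0%), and 863 genes had an unadjusted p under 0.05. Voom on the reads recovered from the FPKM values gave 0 calls and 854 such genes. A fit with the replicate number as a block, which pairs same-numbered pools, gave 0 calls and 1800 such genes. Its limma adjusted p was 0.153 for Tcf3, 0.154 for Tcf12 and 0.982 for Tcf4. For Id1, Id2 and Id3 it was 0.121, 0.355 and 0.304. The values that follow are from the fit without pairs. Tcf3 was at 63.5% of its wild-type mean (log2 fold change -0.66, 95% interval -1.22 to -0.11, limma adjusted p = 0.575) and Tcf12 at 62.5% (-0.69, 95% interval -1.11 to -0.26, limma adjusted p = 0.44). Both were below wild type in 3 of 3 pools, and the exact permutation p of each was 0.1, the smallest that 3 against 3 allows. In all, 8.1% of tested genes lay wholly below wild type in this way and 7.53% wholly above. The log2 fold change of Tcf12 was undercut by 2.43% of tested genes and that of Tcf3 by 2.64%.

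Tcf4 did not differ in these data by more than its interval allows (-0.01, 95% interval -0.41 to 0.40, limma adjusted p = 0.992). The means of the Id genes were higher in the Ebf1+/- pools, all with overlapping groups. Id1 differed by 0.96 (95% interval 0.02 to 1.90, limma adjusted p = 0.637), Id2 by 0.60 (-0.39 to 1.58, adjusted p = 0.754) and Id3 by 0.51 (-0.88 to 1.90, adjusted p = 0.817). Single libraries set the size of these differences. Without Ebf1+/- replicate 1 they were 0.59 for Id1, 0.15 for Id2 and 0.09 for Id3, and without Ebf1+/- replicate 2 they were 1.32, 1.01 and 0.29. Id3 differed by 1.16 without Ebf1+/- replicate 3 and by 0.14 without wild-type replicate 3. The submitters' processing notes also name other tools for the Ebf1+/- libraries than for the wild-type and leukemia libraries. Any such difference and the genotype cannot be told apart.

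Between leukemia and the Ebf1+/- pools, which share 1 altered copy of Ebf1, Tcf3 fell. Leukemia Tcf3 was at 38.5% of the Ebf1+/- mean, a log2 fold change of -1.37 (SE 0.22, limma adjusted p = 0.00333). Id1 was also called, but it passed the filter only through the Ebf1+/- pools, where it is high, so its call is no support beyond the reads given above. It was at 5.41%, a log2 fold change of -1.97 (SE 0.33, limma adjusted p = 0.0039), and at a pseudocount of 0.1 FPKM the same difference was -3.76. Without Ebf1+/- replicate 1, where Id1 was highest, Id1 was under the filter and not tested. The exact permutation p was 0.0179 for both genes, and both were lower in 5 of 5 leukemias. Of 11161 genes tested, limma called 12.3% lower and 9.31% higher (1370 and 1039 genes, against 1139 and 1538 with quantile scaling), and the leukemias lay wholly below for 16.2%.

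The other 4 genes were not called against the Ebf1+/- pools. Tcf12 differed by -0.47 (95% interval -0.94 to -0.00099, limma adjusted p = 0.138) and Tcf4 by -0.17 (-0.51 to 0.16, adjusted p = 0.432). Id2 differed by -1.40 (-2.43 to -0.37, adjusted p = 0.0568), and its adjusted p was 0.0365 without Ebf1+/- replicate 2 and 0.0272 without leukemia replicate 4. Id3 differed by -1.45 (-3.01 to 0.12, adjusted p = 0.168). The 3 comparisons share libraries in pairs, so their values are not independent of each other.

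**Figure D2:**
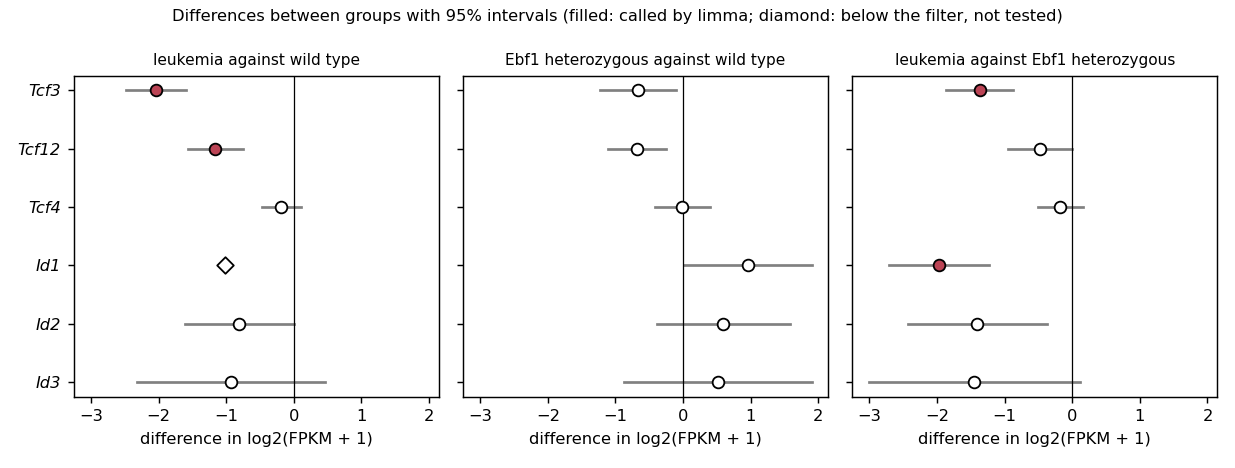
Difference in mean log2(FPKM + 1) of each gene (points) with its unadjusted 95% interval from limma (grey lines) in the 3 comparisons, filled where the gene was called at an adjusted p under 0.05 over all genes, and as a diamond where it was below the filter. Tcf3 is called in both leukemia comparisons, at -2.03 and -1.37, and the Id3 intervals are the widest in each.

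Granulocyte and monocyte markers are given here beside the Id genes, library by library. Id1 and Id2 were highest in Ebf1+/- replicate 1, where the 12 granulocyte markers summed to 10579 FPKM and 8 monocyte and macrophage markers to 2089. They were next highest in Ebf1+/- replicate 3, with sums of 3719 and 1186 FPKM. In Ebf1+/- replicate 2 the sums were 2679 and 515, and in wild type they were 593 to 3391 and 417 to 690. In leukemia the granulocyte sum was 2.19 to 9.17 FPKM, with Cebpe at 0 in all 5 leukemias, and the monocyte sum was 58.4 to 159. S100a9, a calcium-binding protein of neutrophils and the most abundant marker of the list, was at 644 ± 540 FPKM in wild type, 1709 ± 1714 in the Ebf1+/- pools and 2.37 ± 1.69 in leukemia (SD, n = 3, 3 and 5). The part of these cells in the Id1 and Id2 differences was not tested. Leukemia replicate 4, with Id2 at 8.51 FPKM, had the lowest granulocyte and monocyte sums of all 11 libraries. Id3 was also highest in Ebf1+/- replicate 1, at 111 FPKM, but was at 24.3 in Ebf1+/- replicate 3 and at 83.5 in Ebf1+/- replicate 2. In wild type Id3 was at 56.8, 53.8 and 25.0 FPKM beside granulocyte sums of 3391, 1789 and 593. Among the leukemias, replicate 5 had both the highest Id3 (70.7 FPKM) and the highest granulocyte sum (9.17). The part of these cells in the Id3 levels was not tested either.

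**Figure D3:**
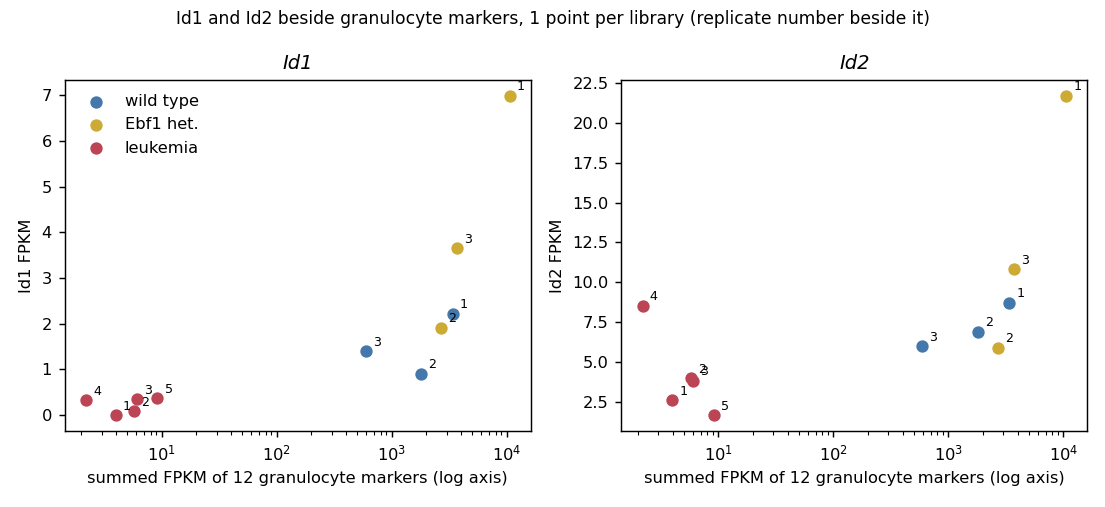
FPKM of Id1 (left) and Id2 (right) on linear axes against the summed FPKM of 12 granulocyte markers on a log axis, 1 point per library with its replicate number. The leukemias sit at 2.19 to 9.17 FPKM of granulocyte markers and the marrow pools at 593 to 10579, where Ebf1+/- replicate 1 has the highest Id1 (6.99) and Id2 (21.7).

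Other lineages that use these genes were measured in the same way. Natural killer and innate lymphoid markers (9 genes), whose cells express Id2, summed to 22.9 to 40.5 FPKM in wild type, 37.0 to 119 in the Ebf1+/- pools and 25.6 to 61.7 in leukemia. Plasmacytoid dendritic cell markers (8 genes), whose cells express Tcf4, summed to 77.8 to 231, 96.0 to 247 and 63.9 to 178 FPKM. Of its 3 most abundant markers, Siglech, a surface lectin of these cells, fell from 20.7 ± 16.7 FPKM in wild type (SD, n = 3) to 1.76 ± 3.43 in leukemia (SD, n = 5, limma adjusted p = 0.00682). The other 2 were not called: Bst2 was at 83.8 ± 33.97 and 101 ± 27.7 FPKM (adjusted p = 0.464) and Cox6a2 at 25.4 ± 12.6 and 14.4 ± 17.2 (adjusted p = 0.219). Of 7 markers of this list tested against wild type, 5 were called lower and none higher, with a median log2 fold change of -1.82. Apart from Siglech, those called had a leukemia mean under 1 FPKM and passed the filter only through wild type. T cell markers (10 genes) summed to 17.0 to 36.3 FPKM in wild type, 19.6 to 87.0 in the Ebf1+/- pools and 12.8 to 142 in leukemia. Mature B and plasma cell markers (9 genes) summed to 144 to 172, 160 to 206 and 379 to 490 FPKM, with every leukemia above every marrow library. Stem and early progenitor markers (8 genes) summed to 19.4 to 67.2 FPKM in wild type, 57.3 to 98.5 in the Ebf1+/- pools and 43.8 to 185 in leukemia. The part of all these cells in the levels of the 6 genes was not tested.

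The make-up of the E protein pool differed between leukemia and both marrow groups. Tcf3 supplied 76.1 ± 2.83% of the summed E protein FPKM in wild type (SD, n = 3), 73.5 ± 2.32% in the Ebf1+/- pools (SD, n = 3) and 57.9 ± 5.48% in leukemia (SD, n = 5). The leukemia shares ran from 49.2% to 62.8% and overlapped neither wild type (72.9% to 78.2%) nor the Ebf1+/- pools (70.9% to 75.3%). Tcf12 made up 17.5%, 16.6% and 24.5% on average, and Tcf4 6.46%, 9.82% and 17.6%. The ratio of Tcf3 to Tcf12 averaged 4.38 in wild type, 4.50 in the Ebf1+/- pools and 2.47 in leukemia. It was lowest, at 1.45, in leukemia replicate 4. Such ratios within a library do not depend on how the library was scaled.

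The summed E protein level was 444 ± 66.9 FPKM in wild type, 291 ± 61.3 in the Ebf1+/- pools and 142 ± 25.6 in leukemia (SD, n = 3, 3 and 5). The summed Id level was 53.9 ± 18.9, 89.9 ± 50.4 and 33.1 ± 23.8 FPKM. RNA of E protein genes was therefore in excess of RNA of Id genes in all 11 libraries. The ratio of the sums was 7.66, 6.87 and 12 in wild type, 2.17, 3.78 and 5.79 in the Ebf1+/- pools and 10.2, 4.07, 4.60, 7.65 and 2.43 in leukemia. On the log2 scale it averaged 3.10 ± 0.43, 1.86 ± 0.71 and 2.36 ± 0.81 (SD, n = 3, 3 and 5). The Ebf1+/- ratios were below those of wild type in 3 of 3 pools, and the leukemia ratios spanned from below the wild-type range into it. Protein levels and dimers were not measured.

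**Figure D4:**
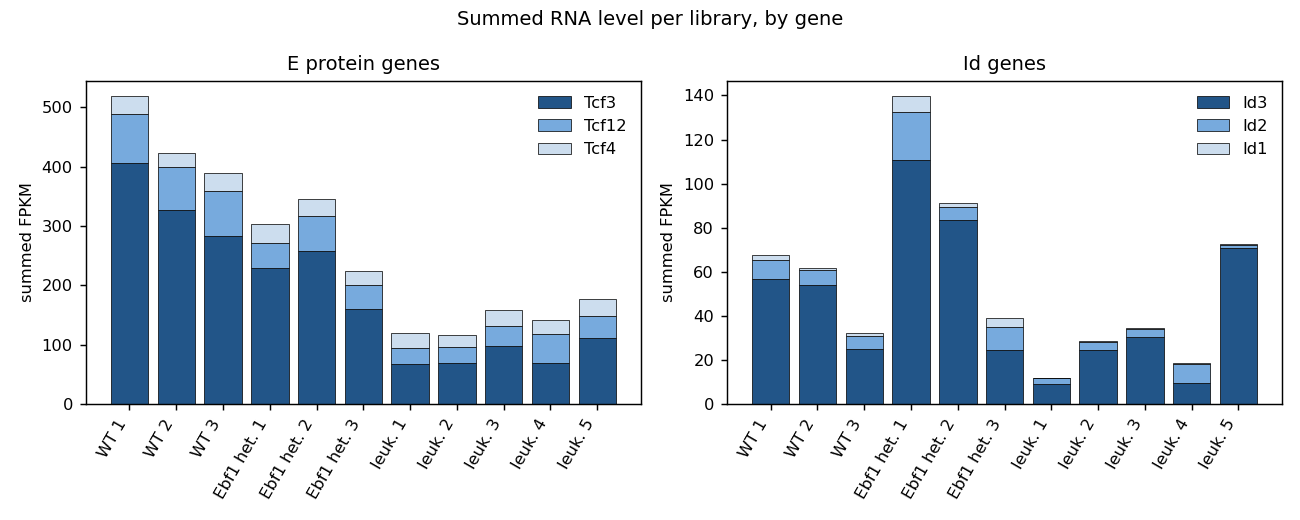
Summed FPKM of the 3 E protein genes (left) and the 3 Id genes (right) in each of the 11 libraries, as bars from 0 stacked by gene, with different vertical scales in the panels. The E protein sum falls from 389 to 518 FPKM in wild type to 116 to 176 in leukemia with a smaller Tcf3 part, and Id3 makes up most of every Id bar, from 52.2% in leukemia replicate 4 to 97.2% in replicate 5.

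Genes with the most similar pattern were found by the root mean square difference of log2(FPKM + 1), each gene centred on its own mean over the 11 libraries, among the 8204 genes whose mean reached 5 FPKM. The nearest to Tcf3 were Bcl7a (0.172), Syk (0.173) and Ero1lb (0.194), against a root mean square of 0.92 for Tcf3 itself. Syk, the kinase that relays pre-B cell receptor signals, was at 378 ± 94.95 FPKM in wild type, 211 ± 38.6 in the Ebf1+/- pools and 97.3 ± 25.2 in leukemia (SD, n = 3, 3 and 5). The nearest to Tcf12 were Rab43 (0.166), Snrnp35 (0.168) and Cblb (0.175), and those to Tcf4 were Fuca1 (0.0994), Phf12 (0.107) and Commd10 (0.114).

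Of the Id genes, Id1 was nearest to Msrb1 (0.303), Csf2ra (0.326) and Cd68 (0.380). Csf2ra, a subunit of the GM-CSF receptor, and Cd68, a macrophage lysosomal protein, are known from myeloid cells, and Cd68 is in the monocyte marker list used above. Id2 was nearest to Prr13 (0.435), Itm2b (0.445) and Grina (0.446), and Id3 to Ptgr1 (0.488), Stambpl1 (0.532) and Bysl (0.570), both at larger distances. Between members, Tcf12 and Tcf4 were 0.476 apart, Id1 and Id2 0.493, and Tcf3 and Tcf12 0.523. These distances are a description over 11 libraries that share their group differences.

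Of 13 known E protein target genes in B progenitors, all tested, 6 fell and 2 rose in leukemia against wild type, and the list's median log2 fold change was -0.57. Over all tested genes 24.1% fell and 20.7% rose, with a median of -0.04. The 2 that rose encode the surrogate light chain: Vpreb1 went from 247 ± 93.9 to 918 ± 108 FPKM (log2 fold change 1.95, limma adjusted p = 0.000189) and Igll1 from 233 ± 104 to 836 ± 162 (1.90, adjusted p = 0.000657). Pou2af1, a B cell coactivator of octamer-binding factors, fell from 502 ± 117 to 248 ± 48.6 FPKM (-1.01, limma adjusted p = 0.0031). The other 5 that fell, named after their values were seen, were Cd79b, Ebf1, Foxo1, Pax5 and Rag2. Against the Ebf1+/- pools 1 of the 13 rose, Il7r, the receptor subunit for interleukin 7, and none fell, beside 9.31% and 12.3% of all tested genes. In the Ebf1+/- pools against wild type none was called, and the median was -0.39.

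E proteins also pair with tissue-specific partners, which LMO proteins and Ldb1 join into larger complexes. Of 10 genes of this kind, 7 were tested, and 2 rose and 2 fell in leukemia against wild type, with a median of 0.03. The shares over all tested genes were 20.7% and 24.1%. Lmo4, a LIM-only adaptor, fell from 124 ± 38.7 to 10.5 ± 1.94 FPKM (SD, n = 3 and 5, log2 fold change -3.41, SE 0.20). Tal1, a partner known from stem and erythroid cells, fell from 16.6 ± 11.9 to 4.70 ± 1.81 FPKM (-1.42, limma adjusted p = 0.0314), and summed erythroid markers were 216 to 1179 FPKM in wild type and 57.0 to 148 in leukemia. Lyl1, a close relative of Tal1, rose from 49.3 ± 5.16 to 82.7 ± 8.01 FPKM (0.73, limma adjusted p = 0.00093). Lmo4 and Tal1 also fell against the Ebf1+/- pools, with log2 fold changes of -2.49 and -1.79, where 12.3% of all tested genes fell.

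Of 7 coactivators and ETO-family corepressors that E proteins bind, 6 were tested, 3 fell and 1 rose against wild type (median -0.44). Over all tested genes 24.1% fell and 20.7% rose. Kat2a, a histone acetyltransferase, rose from 22.6 ± 5.47 to 44.9 ± 5.20 FPKM (SD, n = 3 and 5, limma adjusted p = 0.0013) and also rose against the Ebf1+/- pools. Cbfa2t3, an ETO-family corepressor, fell from 21.9 ± 3.46 to 10.1 ± 2.23 FPKM (limma adjusted p = 0.00203), and Crebbp, an acetyltransferase, from 20.4 ± 4.08 to 12.6 ± 1.01 (0.00465). The third that fell was Ep300, the acetyltransferase most like Crebbp.

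Of 6 genes that act in the turnover of E and Id proteins, 2 fell in leukemia against both marrow groups. Over all tested genes 24.1% fell against wild type and 12.3% against the Ebf1+/- pools. Fzr1, an activator of the ubiquitin ligase that degrades Id proteins in the cell cycle, was at 67.8 ± 7.36 FPKM in wild type, 65.7 ± 4.77 in the Ebf1+/- pools and 39.7 ± 3.09 in leukemia (SD, n = 3, 3 and 5). Asb2, a ubiquitin ligase subunit, was at 4.15 ± 1.20, 5.18 ± 2.40 and 0.888 ± 0.805 FPKM. It passed the filter only through the marrow groups, where it is high, so its calls are no support beyond these values. Huwe1, a large ubiquitin ligase, did not pass the test (0.32, limma adjusted p = 0.195).

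Signals that raise Id transcription were also read. Of 8 BMP receptor and SMAD genes, 4 were tested against wild type and none of these was called (median -0.03). Smad5 differed by 0.08, Smad4 by -0.09 and Smad1 by -0.26, with limma adjusted p of 0.51, 0.519 and 0.788. The other 4 were under the filter and not tested, and 2 receptor genes among them, named after their values were seen, were lower in every leukemia than in every marrow library. Of tested genes, the leukemias lay wholly below wild type for 25.1% and wholly below the Ebf1+/- pools for 16.2%. Smad6, also among the 4, had a higher mean in leukemia (0.101 FPKM) than in wild type (0.0411). Bmpr2, a type II BMP receptor, was at 1.88 ± 0.602 FPKM in wild type, 1.99 ± 0.755 in the Ebf1+/- pools and 0.0551 ± 0.0654 in leukemia (SD, n = 3, 3 and 5). Acvr1, a type I receptor, was at 0.598 ± 0.118, 1.09 ± 0.115 and 0.0587 ± 0.0407 FPKM. Of 3 Egr genes, which encode factors known to raise Id3, 1 was tested, and Egr1 fell from 2.27 ± 0.597 to 0.434 ± 0.243 FPKM (SD, n = 3 and 5, log2 fold change -1.19, limma adjusted p = 0.0027). Egr1 was at most 0.727 FPKM in leukemia and passed the filter only through wild type, so its call is no support beyond these values. In the Ebf1+/- pools against wild type no gene of these 6 lists was called.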

How the data were processed

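RNA of 11 libraries was compared. The authors deposited 1 table of FPKM values. The submitters' processing notes name BWA 0.7.12 for wild type and leukemia but TopHat2 and Cufflinks for the Ebf1+/- pools, with mm10 (GRCm38) throughout. Which tool counted reads, and on which annotation, is not given in the sources used here. All 17380 genes above 0 came out as whole reads (tolerance 0.001 read) at a whole-number library total, so depth is known. Each of these genes had 1 whole-number length that held in all 11 libraries, the Ebf1+/- pools included. The level that 0 reads allows covers counting error only.

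Values were taken as log2(FPKM + 1), which understates changes of low genes. For each comparison limma 3.58.1 (R 4.3.3) was fitted to the 2 groups alone, with a trended eBayes prior, on genes whose mean reached 1 FPKM there. Its two-sided p-values were Benjamini-Hochberg adjusted over all such genes, and 0.05 was the threshold for a call. The code was tested on simulated data. Alternatives were another pseudocount, filter, scaling, prior, weighting, grouping and block, each library left out, and, chosen after seeing the data, voom on the recovered reads. Exact permutation tests, ratios, lists and promoter letters were computed in Python 3.11.15 with NumPy 2.4.6 and pandas 2.3.3, and figures with Matplotlib 3.10.9. The ratios and the likeness search carry no test. Symbols of 95.4% of identifiers matched GENCODE M21.

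The 6 genes, the pathway lists, the marker lists and the tests were chosen with earlier results of these data known. Named beside the 6 genes were the 3 tested genes of smallest p per pathway list, up to 3 of the most abundant markers per list, Cebpe for its 0 values, and the 3 genes most like each of the 6. Pools and mice are separate samples, but p-values measure only the spread among them. Same-numbered wild-type and Ebf1+/- pools deviated together (r = 0.65, 0.32 and 0.69 across genes), by the data and not by a label. They were treated as paired in an alternative fit with the replicate number as a block. It called 0 genes, but 1800 genes had an unadjusted p under 0.05, against 863 without pairs. Unless stated, the intervals and p-values given for these groups are from the fit without pairs. Numbers of leukemias did not pair with either marrow group (r = -0.13 to 0.07). Strand use in counting is not given, and close paralogs could not be told apart.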

Additional observations from a re-analysis of the deposited data

How the results depend on the processing

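Of 427 values recomputed under alternative settings, 411 stayed the same and 8 passed the threshold that they had missed. The remaining 8, all counts, moved by more than 1.5 times. For gene differences, the same meant the same side of the threshold, and for counts, within 1.5 times. For E to Id ratios it meant a shift below the larger group SD. The same rule was used for Id1 in leukemia against wild type, which the main fit did not test. No called difference and no E to Id ratio changed sign. The uncalled Tcf4 difference between the Ebf1+/- pools and wild type did, running from -0.11 to 0.11. Tcf3 and Tcf12 stayed called against wild type in 18 of 18 alternatives, with limma adjusted p of 8.03e-06 to 0.00347 and 9.97e-05 to 0.00609, and Tcf3 against the Ebf1+/- pools in 18 of 18 (0.00116 to 0.0366). Id1 was called there in the 16 that tested it (0.00123 to 0.0448), having passed the filter through the Ebf1+/- pools alone. These repeated calls rest on the same few reads and add no support. In the Ebf1+/- pools against wild type, the genes called numbered 3 at a pseudocount of 0.1, 2 with median-ratio scaling, 23 with all 3 groups in 1 fit, 13 with array weights and 0 to 5 with 1 library left out, the 5 without Ebf1+/- replicate 3. None of the 6 genes was called in any of these. Against the Ebf1+/- pools, 1 of the 6 genes was called at a filter of 5 FPKM, where Id1 was not tested, and 1 to 3 with 1 library left out. With the replicate number as a block, 944 genes were called in leukemia against the Ebf1+/- pools in place of 2409, and the block changed 1 call of the 6 genes: Id2 against wild type had an adjusted p of 0.0366. The samples of that comparison share only a number. Id2 was also called against wild type with array weights (0.0205), and against the Ebf1+/- pools with all 3 groups in 1 fit (0.0308). Tcf12 was called there with array weights (0.0422). Quantile scaling moved the median of all genes in leukemia against the Ebf1+/- pools from -0.02 to 0.08, and the calls from 1039 higher and 1370 lower to 1538 and 1139. At 0 to 5 reads, depth limits what can be said of Id1 in leukemia.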
